A study of Mus musculus with 8 samples.

Results

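Bard1, Xrcc5, Smarcal1 and Nabp1 are 4 DNA repair genes, taken by name from the 779 genes with a complete row in a single-cell count table of mouse stomach glands. Their transcripts were counted in the 1388 of 1460 cell barcodes that held 100 or more counts in the table. The question was which of the 4 follow DNA replication, read from barcodes with a count of the replication and division genes Mcm3, Prim2 or Sgol2.

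The cells came from mouse stomach glands of a single genotype, Atp4bCre; Rosa26NICD; Arid1aflox/flox, at 23 weeks of age. Cre is driven by the promoter of Atp4b, a proton pump gene of acid-secreting parietal cells, NICD is the active intracellular part of a Notch receptor expressed from the Rosa26 locus, and Arid1a, a subunit gene of the BAF chromatin remodelling complex, carries floxed alleles. All samples share these alleles and no other genotype was compared. In which cells Cre had acted was not measured. Cells with high EPCAM staining and little Sytox Blue, a dye taken up by dead cells, had been sorted and run on the droplet-based 10x platform, so all shares below describe the sorted fraction. The labels list 8 samples, without stating separate animals, and the barcodes name none of them. The table was therefore read as 1 pooled sample, and no difference below has a replicate check or a p-value.

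The kept barcodes held 439743 unique molecular identifiers (UMIs, each standing for 1 captured transcript), from 100 to 1082 per barcode with a median of 286. These are totals over the table, which covers part of chromosome 1, and not library depth. Levels are counts per 1000000 table UMIs (CPM). Rpl7, Rpl31, Rpl37a and Ptma took 49.7% of the UMIs, so a level in CPM moves when those 4 genes move. Values in parentheses after a level, share or ratio are exact 95% intervals, which cover counting error only and are too narrow where several UMIs of a gene share a barcode. Levels are not ranked between the 4 genes, because the part of the transcript that was captured is not given in the sources used here. Of 30 cell type markers looked up, 13 had a row. None of the markers of gland epithelium, parietal, chief, pit or neck cells was among them, so the labelled tissue could not be checked with these markers.

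The 4 genes act at different points of DNA repair. Bard1 encodes the partner of BRCA1, with which it forms a ubiquitin ligase needed for repair of double-strand breaks by homologous recombination, a route that uses the sister chromatid as template and so belongs to cells that are copying or have copied their DNA. Xrcc5 encodes Ku80, which with Ku70 caps broken DNA ends and starts non-homologous end joining, a route open throughout the cell cycle. Smarcal1 encodes an annealing helicase that is brought to stalled replication forks by the single-strand binding protein RPA and remodels them. Nabp1 encodes SSB2, a single-strand DNA binding protein of the SOSS complex. Of the markers, Mcm3 encodes a subunit of the replicative helicase, Prim2 the large subunit of DNA primase, and Sgol2 a shugoshin protein that protects cohesion at centromeres. Many S-phase genes are controlled by E2F transcription factors.

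All 4 genes lie on chromosome 1 of GRCm38, the assembly that mm10 names. Nabp1 spans 51465862 to 51478425 on the minus strand, Bard1 71027498 to 71103146 on the minus strand, Xrcc5 72307421 to 72394952 on the plus strand and Smarcal1 72583251 to 72633134 on the plus strand (GENCODE vM21). Xrcc5, Smarcal1 and Nabp1 overlap no other annotated gene. Bard1 overlaps a processed pseudogene, Gm16236, which lies on the same strand inside an intron and has no row in the table. The 76 bases just before the outermost annotated start of each gene are shown because an E2F-type motif, 1 of 3 kinds of motif searched, fell in this stretch of Bard1 and in none of the others. The sequences are from the RefSeq promoter table for GRCm38.p6, written 5′ to 3′ on the gene's strand, and capitals mark the match.

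Bard1, chr1:71103147-71103222, minus strand: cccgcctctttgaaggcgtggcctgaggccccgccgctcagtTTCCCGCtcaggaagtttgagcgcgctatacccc
Xrcc5, chr1:72307345-72307420, plus strand: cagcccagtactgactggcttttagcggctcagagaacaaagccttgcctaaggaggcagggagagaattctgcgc
Smarcal1, chr1:72583175-72583250, plus strand: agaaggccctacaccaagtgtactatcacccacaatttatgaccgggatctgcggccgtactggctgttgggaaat
Nabp1, chr1:51478426-51478501, minus strand: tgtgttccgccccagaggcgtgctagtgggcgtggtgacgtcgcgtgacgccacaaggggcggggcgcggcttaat
Mcm3, chr1:20820264-20820293, minus strand, bases 20 to 49 after its RefSeq start: GCGGGAAaacttgggaagttTTGGCGCCAA

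The letters searched were TTNNCGC with C or G at each N, on both strands, in the whole window of 250 bases before to 50 bases after each RefSeq start. At least 1 of them was found in 3145 of 32851 such windows, 9.57%. Bard1 had 1 match, which begins 208 bases before its RefSeq start and 34 bases before the GENCODE start, 174 bases further upstream. Mcm3 had 3 matches, of which the last 2 overlap on opposite strands and form the capitals at the end of its line. Sgol2, listed in RefSeq as Sgo2a, had 1 match after 1 of its 2 starts. No match was found in the windows of Xrcc5, Smarcal1 or Nabp1, nor in that of Hjurp, a chaperone gene of the centromeric histone. 2 other motifs were searched in the same windows, on both strands. The letters TTTGAA or TTTAAA of the CHR element, found in 27.6% of all windows, matched 1 time in Bard1 and in Xrcc5, 2 times in Smarcal1 and 0 times in Nabp1 and in Mcm3. The letters CCAAT, found in 37.4%, matched 0 times in Bard1, 1 time in Xrcc5 and in Nabp1, 2 times in Smarcal1 and 3 times in Mcm3. The table held all 4 genes and, of the markers, Mcm3 and Sgol2 but not Prim2. A match describes letters and is not a bound site.

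Transcripts of all 4 genes were found, each in a minority of barcodes and mostly as single UMIs. Bard1 had 51 UMIs in 44 barcodes, 3.17% (2.31 to 4.23), at a level of 116 CPM (86.4 to 152). Of these barcodes 38 held 1 Bard1 UMI, 5 held 2 and 1 held 3. Xrcc5 had 318 UMIs in 267 barcodes, 19.2% (17.2 to 21.4), at 723 CPM (646 to 807), with up to 4 in a barcode. Smarcal1 had 114 UMIs in 110 barcodes, 7.93% (6.56 to 9.47), at 259 CPM (214 to 311). Nabp1 had 75 UMIs in 71 barcodes, 5.12% (4.02 to 6.41), at 171 CPM (134 to 214). Free RNA can give UMIs in cells that do not express a gene. No barcode class known to lack these genes was at hand, and its part in the shares was not tested.

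Few barcodes held more than 1 of the 4 genes, each of which was itself sparse. At least 1 of them was found in 433 barcodes, 2 or more in 57, 3 in 2 and all 4 in 0. Bard1 and Xrcc5 shared 12 barcodes, where their frequencies within depth bins give 10.0. Xrcc5 and Nabp1 shared 21, where 14.96 are given, and Xrcc5 and Smarcal1 17, where 23.1 are given. Bard1 shared 2 with Smarcal1, where 4.22 are given, and 1 with Nabp1, where 2.79 are given. Smarcal1 and Nabp1 shared 8, where 6.27 are given. For each of the 6 pairs, the level of the second gene in barcodes with the first over the others had an interval that included 1.

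A UMI of Mcm3, Prim2 or Sgol2 was present in 300 of the 1388 barcodes, 21.6%. These barcodes had a median of 397 table UMIs against 265.5 in the 1088 without a marker, so levels were compared within 3 depth bins, of 100 to under 200, 200 to under 400 and 400 or more table UMIs. A common ratio over the bins was taken for each gene. A barcode without a marker UMI is not shown to be outside replication: at this depth many transcripts of a replicating cell go uncounted. The markers went together. Mcm3 was 2.59-fold higher (2.02 to 3.33) in barcodes with a Prim2 or Sgol2 UMI than in the rest, Prim2 2.95-fold (1.91 to 4.57) with Mcm3 or Sgol2, and Sgol2 3.71-fold (2.00 to 7.09) with Mcm3 or Prim2.

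Bard1 was higher in barcodes with a replication marker. It had 34 UMIs in 27 of the 300 marker barcodes and 17 UMIs in 17 of the 1088 others. Its level was 269 CPM (186 to 376) with a marker and 54.3 CPM (31.6 to 86.9) without, and the 2 intervals did not overlap. Within depth bins the ratio was 4.96 (2.57 to 9.93). The share of barcodes with a Bard1 UMI was 9.0% (6.01 to 12.8) with a marker and 1.56% (0.913 to 2.49) without. With the same 300 and 1088 barcodes each thinned to 100 UMIs, the expected shares were 2.56% and 0.491%.

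In each depth bin the Bard1 level was higher with a marker. Among barcodes of 400 or more UMIs it was 251 CPM (155 to 384) with and 71.9 (28.9 to 148) without, a ratio of 3.49 (1.43 to 9.72). Among those of 200 to under 400 UMIs it was 282 CPM (141 to 505) against 47.6 (20.5 to 93.7), a ratio of 5.93 (2.17 to 17.0). Among those under 200 UMIs there were 2 Bard1 UMIs in 1 of 25 marker barcodes and 2 in 305 others, too few to place the ratio, 12.3 (0.889 to 169). All 6 barcodes with 2 or more Bard1 UMIs carried a marker. Counting each barcode once per gene, which removes these repeats, gave a Bard1 ratio of 3.78 (1.89 to 7.76).

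The Xrcc5 ratio by replication marker had an interval that included 1. It had 99 UMIs in 82 marker barcodes and 219 UMIs in 185 others, at 783 CPM (636 to 953) and 699 CPM (610 to 798). The ratio within depth bins was 1.18 (0.906 to 1.53). By counting error alone, this leaves room for a rise of up to 1.53-fold in marker barcodes. With 2 or more marker UMIs against none, the interval reached 1.71. By depth bin, the Xrcc5 ratio was 1.29 (0.335 to 3.59), 1.30 (0.866 to 1.91) and 1.07 (0.744 to 1.55), from the shallowest to the deepest. The share of barcodes with an Xrcc5 UMI was 27.3% with a marker and 17.0% without, but thinned to 100 UMIs the shares were 8.12% and 6.81%. With the markers read again in a single random draw of 100 UMIs per barcode, the Xrcc5 ratio was 1.96 (1.08 to 3.33). That interval no longer included 1, but it leaves out the spread between draws.

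Smarcal1 had a ratio above 1 whose interval just reached 1. Its 40 UMIs in 38 marker barcodes and 74 UMIs in 72 others gave 316 CPM (226 to 431) and 236 CPM (185 to 297), levels with overlapping intervals. The Smarcal1 ratio within depth bins was 1.52 (0.982 to 2.33). From the shallowest bin to the deepest it was 3.68 (0.651 to 14.3), 1.41 (0.730 to 2.57) and 1.42 (0.728 to 2.81). The interval moved to the other side of 1 (1.58, 1.01 to 2.44) when the depth bins were also split at the median share of 4 biosynthesis genes. By counting error alone, the Smarcal1 interval within depth bins leaves room for no change and for a rise of up to 2.33-fold in marker barcodes.

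Nabp1 had the lowest ratio of the 4 genes. Its 16 UMIs in 15 marker barcodes and 59 UMIs in 56 others gave 127 CPM (72.3 to 205) and 188 CPM (143 to 243). The Nabp1 ratio was 0.655 (0.342 to 1.19) within depth bins, so a difference in either direction was not detectable. In the deepest bin the Nabp1 level was 95.7 CPM (41.3 to 189) with a marker and 226 CPM (142 to 342) without, a ratio of 0.423 (0.163 to 0.987). In the middle bin its ratio was 0.863 (0.294 to 2.11), and in the shallowest 3.50 (0.355 to 18.4), from 2 UMIs with a marker. The deepest bin is 1 of 12 gene and bin values examined, and its interval comes close to 1.

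**Figure D1:**
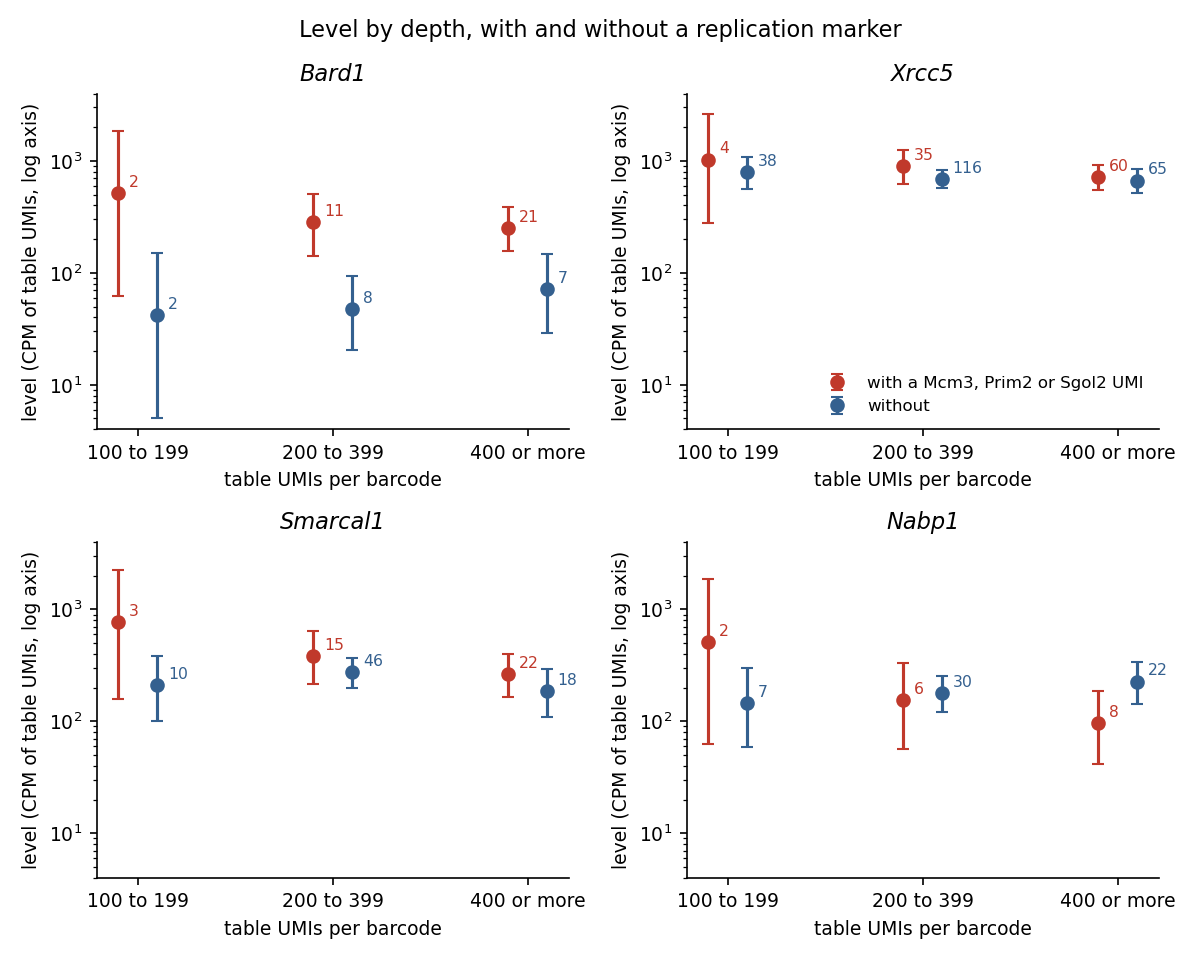
Level of each gene in CPM (log axis) in barcodes with (red) and without (blue) a Mcm3, Prim2 or Sgol2 UMI, by depth bin, with exact Poisson 95% intervals and the number of UMIs beside each point. The Bard1 points with a marker lie above those without in all 3 bins, while those of Xrcc5 lie close together.

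The ratio of Bard1 differed from that of each other gene. The Bard1 ratio was 4.08 times (2.03 to 8.46) the Xrcc5 ratio, 3.15 times (1.46 to 7.00) the Smarcal1 ratio and 6.63 times (2.83 to 16.3) the Nabp1 ratio, within the same barcodes and depth bins. Between the other genes, Smarcal1 stood 2.17 times (1.04 to 4.70) above Nabp1. Xrcc5 did not differ detectably from Smarcal1 (0.785, 0.476 to 1.30) or from Nabp1 (1.75, 0.915 to 3.50). These are all 6 pairs, and the intervals are not adjusted for their number. The interval of Bard1 against Smarcal1 included 1 with Prim2 alone as marker (2.46, 0.992 to 6.13) and with Sgol2 alone (3.26, 0.939 to 12.3).

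Read against all genes, Bard1 stood near the top. Among the 274 genes with 20 or more UMIs other than the 3 markers, which include all 4 repair genes, the Bard1 ratio ranked 2, Smarcal1 20, Xrcc5 67 and Nabp1 255. Of the 4 genes, 1 had its whole interval above 1 (Bard1), against 9.12% of all genes tested, and 0 had it below 1, against 10.9%. Bard1 and Smarcal1 were higher by 1.5-fold or more, as were 9.12% of the genes tested and 15.1% of the 159 with fewer than 400 UMIs. Nabp1 was lower by 1.5-fold or more, as were 7.3% of the genes tested and 12.6% of those with fewer than 400 UMIs. The median ratio was 1.35 over the 4 genes, which went both ways, 1.06 over the 159 genes with fewer than 400 UMIs, a range that holds all 4, and 0.992 over all 274. The gene that ranked above Bard1 was the decoy receptor gene Il1r2, at 10.7 (4.60 to 26.0) from 28 UMIs.

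**Figure D2:**
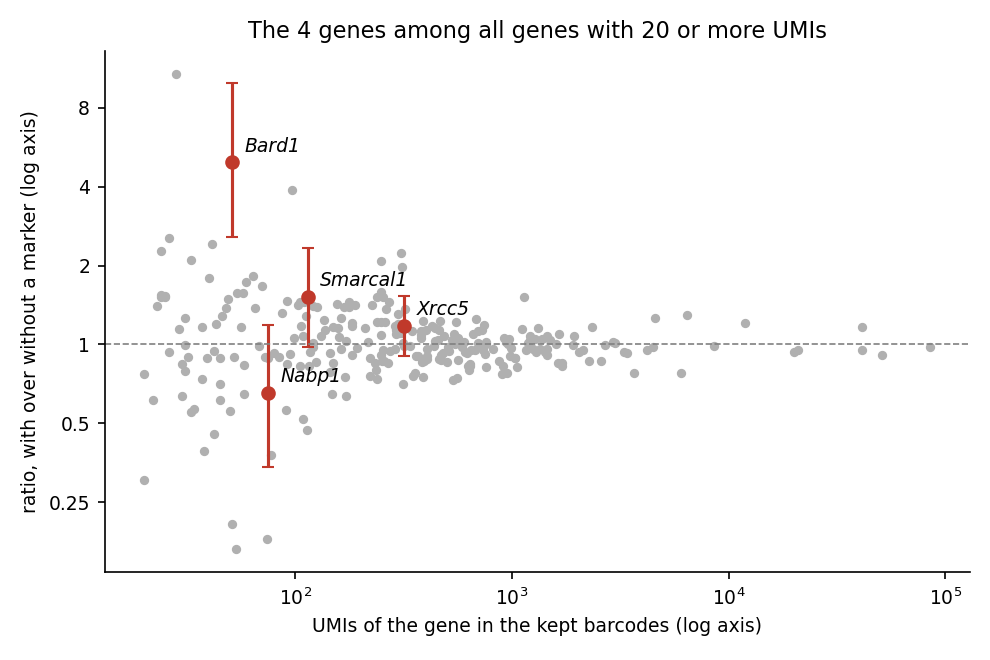
Ratio of the level in barcodes with a replication marker to that without, within depth bins, against the gene's UMIs (both axes log), for 274 genes with 20 or more UMIs. Bard1 at 4.96 lies apart from most genes, whereas the points of Smarcal1, Xrcc5 and Nabp1 lie within the cloud. Red bars are exact 95% intervals.

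Each marker on its own gave a Bard1 ratio near 4. The Bard1 ratio was 4.08 (2.19 to 7.70) in the 233 barcodes with Mcm3, 4.21 (2.09 to 8.21) in the 87 with Prim2 and 3.98 (1.73 to 8.43) in the 43 with Sgol2. These sets overlap, since 57 barcodes held more than 1 of the markers. A high Bard1 level near Sgol2 was already known from these data when the markers were chosen. The Sgol2 ratio is therefore no independent support, and the ratio for any marker includes the Sgol2 barcodes. Hjurp, which had no part in defining the marker barcodes, was itself 2.22-fold higher (1.73 to 2.86) in them. In the 245 barcodes with a Hjurp UMI, Bard1 was 3.33-fold higher (1.82 to 6.08) than in the rest. The 2 sets overlap, as 94 of the 245 also held a marker UMI. Bard1 was found in 19 of the 245, and only 5 of these 19 held no marker UMI. Hjurp was used as a marker after seeing the data, so this ratio is not a separate check.

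The other 3 genes had intervals that included 1 for each of these markers. Xrcc5 was at 1.17 (0.884 to 1.54) with Mcm3, 1.14 (0.749 to 1.67) with Prim2, 0.891 (0.477 to 1.53) with Sgol2 and 0.877 (0.648 to 1.17) with Hjurp. Smarcal1 was at 1.39 (0.867 to 2.18), 1.74 (0.919 to 3.11), 1.15 (0.406 to 2.64) and 1.41 (0.890 to 2.18) for the same 4 markers in turn. Nabp1 was at 0.732 (0.362 to 1.38), 0.888 (0.309 to 2.10), 0.790 (0.157 to 2.46) and 1.10 (0.597 to 1.94), the third from only 3 UMIs. The direction of Xrcc5 and of Nabp1 thus depended on the marker, within counting error.

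**Figure D3:**
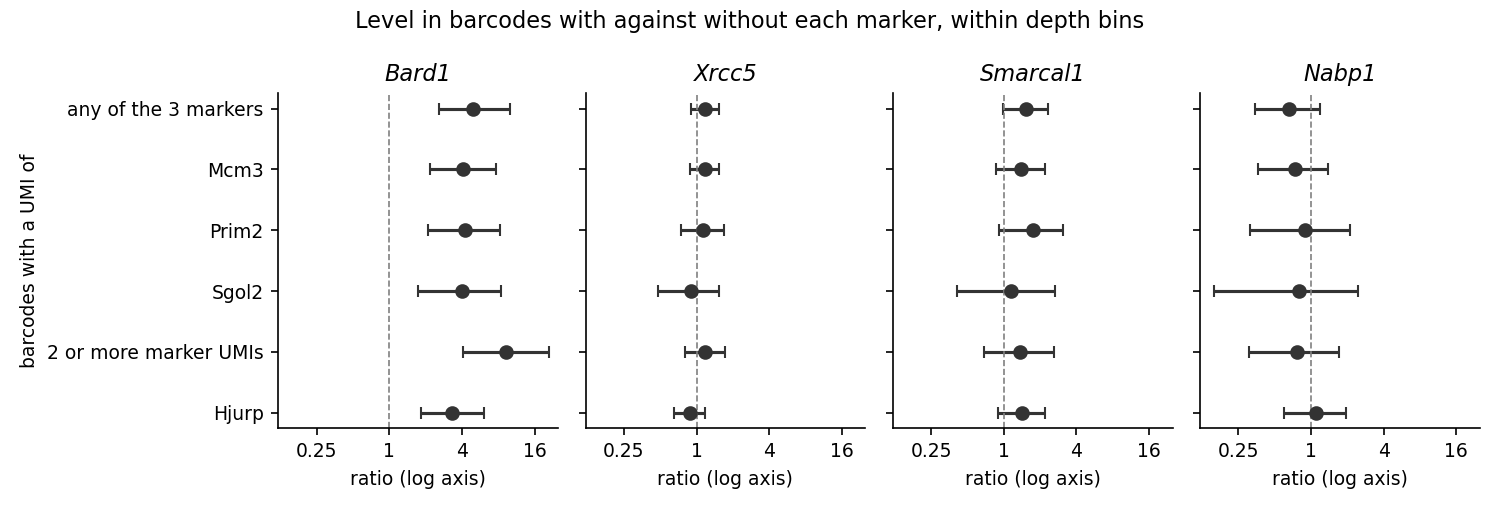
Ratio of each gene's level in barcodes with over without a UMI of the marker named at left, within depth bins (log axis), with exact 95% intervals and a dashed line at 1. For the fifth marker set, 2 or more marker UMIs, the comparison is with barcodes that have none. All 6 Bard1 intervals lie above 1, and every interval of the other 3 genes includes 1.

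Bard1 was higher at each number of marker UMIs than at 0. Bard1 was at 54.3 CPM in the 1088 barcodes with 0 marker UMIs and at 169 CPM (89.9 to 289) in the 197 with 1. It was at 457 CPM (228 to 817) in the 54 with 2 and at 394 CPM (189 to 725) in the 49 with 3 or more, and the last 2 intervals overlap widely. Within depth bins, the Bard1 ratio to barcodes with none was 2.80 (1.21 to 6.32) for 1 marker UMI, 10.46 (4.00 to 26.4) for 2 and 5.74 (2.12 to 15.2) for 3 or more, so no steady rise was shown. For 2 or more together it was 9.19 (4.10 to 20.9).

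In the other genes the levels at these steps were alike within counting error. Xrcc5 stood at 699, 779, 664 and 907 CPM with 0, 1, 2 and 3 or more marker UMIs, Smarcal1 at 236, 338, 291 and 276 CPM, and Nabp1 at 188, 104, 166 and 158 CPM. With 2 or more marker UMIs against none, the ratio was 1.18 (0.795 to 1.71) for Xrcc5, 1.37 (0.680 to 2.59) for Smarcal1 and 0.765 (0.304 to 1.69) for Nabp1.

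**Figure D4:**
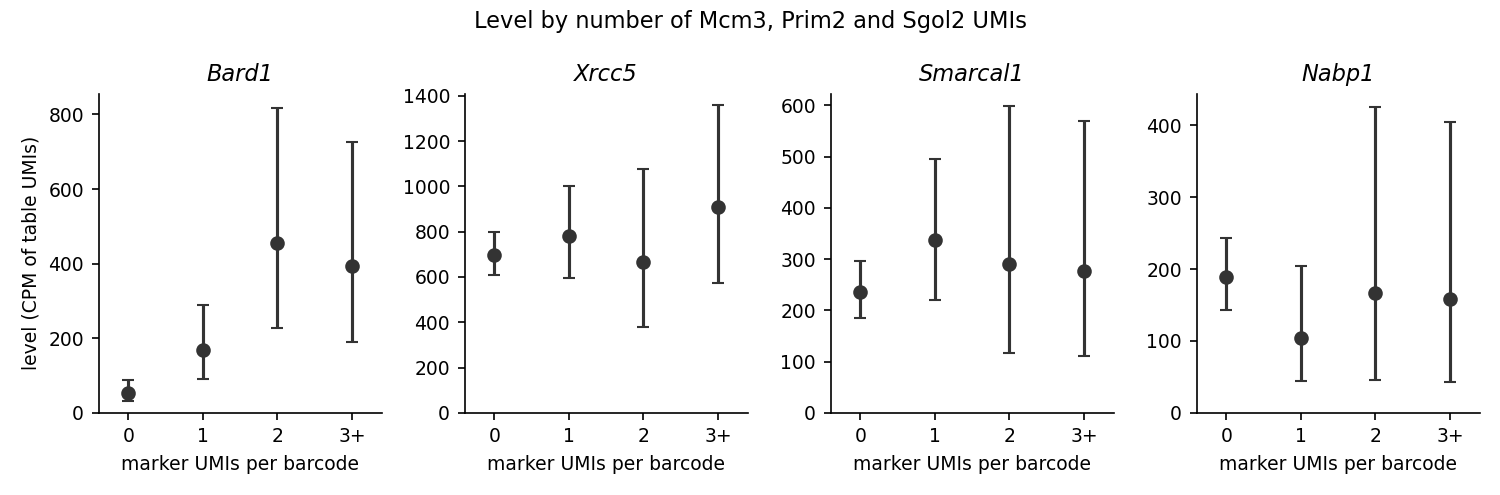
Level of each gene in CPM in barcodes with 0, 1, 2 and 3 or more UMIs of Mcm3, Prim2 and Sgol2 together, with exact Poisson 95% intervals; each panel has its own axis from 0. Bard1 goes from 54.3 CPM at 0 to 457 CPM at 2, and the other genes show overlapping intervals at every step.

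Seen from the repair gene, most Bard1 barcodes carried a marker. Of the 44 barcodes with Bard1, 27 had a marker UMI, 61.4% (45.5 to 75.6), where their depth bins give 30.8%. This reads the same 27 and 17 barcodes the other way round and is no separate result. Mcm3 was present in 23 of them, Prim2 in 10 and Sgol2 in 8. Of the 17 without a marker, 5 held a Hjurp UMI. A marker was present in 30.7% (25.2 to 36.6) of the Xrcc5 barcodes, where 25.1% are given by depth. The share was 34.5% (25.7 to 44.2) of the Smarcal1 barcodes, where 25.6% are given, and 21.1% (12.3 to 32.4) of the Nabp1 barcodes, where 26.1% are given. For Nabp1 the share given by depth lay inside the interval of the measured one, and for Xrcc5 and Smarcal1 just below it.

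Marker barcodes also differed in other ways. The summed level of the measured endocrine markers Ptprn, Resp18 and Scg2 (3 of 4 listed) was 190 CPM with a replication marker and 562 CPM without, a ratio of 0.403 (0.246 to 0.635) within depth bins, with Scg2 at 0 in marker barcodes. That of the tuft cell genes Inpp5d and Ptpn18 (2 of 3 listed) was 1637 CPM against 2522 CPM, a ratio of 0.748 (0.633 to 0.881). Ptpn18 gave 946 of these 997 UMIs, with a ratio of 0.779 (0.658 to 0.919). Inpp5d alone was at 0.206 (0.0398 to 0.671), from 3 UMIs against 48. The enterocyte genes (2 of 3 listed) went opposite ways: Alpi was 2.09-fold higher (1.59 to 2.74) in marker barcodes, with 135 UMIs against 112, and Vil1 stood at 0.830 times (0.739 to 0.932). Their summed level was 4515 CPM with a marker and 4380 CPM without, a ratio of 0.960 (0.864 to 1.07). The immune genes Cd28, Ctla4 and Icos (3 of 4 listed) had 20 UMIs in all and the 3 stromal genes 3. The part of these differences in the Bard1 result was not tested.

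Bard1 was also higher where genes of biosynthesis were high. Barcodes were ordered by the summed share of Ncl, Nop58, Hspd1 and Hspe1, nucleolar and mitochondrial chaperonin genes, and the highest and lowest 346 barcodes, taken in equal parts from each depth bin, were compared. Of the highest barcodes 115 carried a replication marker, and of the lowest 44. Bard1 had 28 UMIs in the highest set and 7 in the lowest, a ratio of 3.59 (1.53 to 9.72). The replication genes were higher as well, Mcm3 4.47-fold (3.09 to 6.62) and Prim2 3.54-fold (1.80 to 7.60). Xrcc5 (1.12, 0.810 to 1.55), Smarcal1 (1.22, 0.708 to 2.14) and Nabp1 (0.823, 0.433 to 1.56) did not differ detectably. Compared directly, the Bard1 ratio was 3.06 times (1.21 to 8.82) that of Xrcc5 and 4.03 times (1.36 to 13.2) that of Nabp1. Against Smarcal1 the Bard1 ratio was 2.83 times as high (0.990 to 8.98), an interval that included 1. Of the 4 genes 1 had its whole interval above 1, against 8.06% of 273 genes tested, and 0 below it, against 24.2%. When depth bins were split at the median of this share, the Bard1 ratio by replication marker was 4.11 (2.07 to 8.43).

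Beyond the 4 genes, 7 of 31 listed repair genes had a row, and 0 of these had an interval that excluded 1 in marker barcodes. Over all genes tested 9.12% had an interval above 1 and 10.9% below. Rev1, a translesion DNA polymerase gene, had a ratio of 1.82 (0.995 to 3.27) and the mismatch repair gene Pms1 1.52 (0.590 to 3.88). Nhej1, which encodes the end-joining factor XLF that works with Ku80, was at 0.825 (0.506 to 1.32), and the nucleotide excision endonuclease gene Ercc5 at 1.15 (0.781 to 1.68). Usp37, a deubiquitinase gene, was at 1.40 (0.914 to 2.11), the ubiquitin ligase gene Trip12 at 0.920 (0.767 to 1.10) and Ino80d, a subunit gene of the INO80 chromatin remodeller, at 0.925 (0.758 to 1.12). The median of the 7 was 1.15. Of 20 listed replication and division genes other than the markers, 2 had a row and both had intervals above 1, against 9.12% of all genes tested: Hjurp and the origin recognition gene Orc2, at 1.42 (1.02 to 1.96). The lists hold few measured members and stand for no pathway as a whole.

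Across other classes of barcodes, defined by genes of the gland epithelium and its rarer cells, no level of the 4 genes differed beyond counting error. In the 28 barcodes with the tuft and blood cell gene Inpp5d, Bard1 had 0 UMIs, which allows a level of up to 371 CPM, and Xrcc5 had 2 UMIs, 247 CPM (29.9 to 892). In the 40 barcodes with the secretory granule gene Ptprn, Bard1 had 0 UMIs as well, against 121 CPM in the rest. The same limits were 179 CPM and, by the exact interval, 220 CPM. Xrcc5 was at 774 CPM (412 to 1324) there, and Nabp1 had 1 UMI. In the 283 barcodes with the fibronectin gene Fn1, Bard1 was at 146 CPM (77.8 to 250), Xrcc5 at 832 (653 to 1044), Smarcal1 at 348 (237 to 495) and Nabp1 at 180 (103 to 292), with ratios to the rest from 1.07 for Nabp1 to 1.48 for Smarcal1.

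In the 439 barcodes with the small GTPase gene Arl4c, the Bard1 level was 71.7 CPM (34.4 to 132) against 137 CPM (98.0 to 185), a ratio of 0.522 (0.233 to 1.06). In the 346 barcodes with the highest share of the glutathione transferase gene Gsta3 it was 71.3 CPM (30.8 to 140) against 131 CPM (95.01 to 177), a ratio of 0.541 (0.220 to 1.16). Both classes held fewer marker barcodes than the rest, 18.0% against 23.3% and 16.2% against 23.4%. In the Arl4c and Gsta3 classes alike, the Smarcal1 ratio was 0.997. Barcodes with the intestinal phosphatase gene Alpi held 41.0% marker barcodes against 20.7%, with a Bard1 ratio of 1.01 (0.261 to 2.84). Those with Ptprn held 27.5% against 21.4%, with 0 Bard1 UMIs. The Alpi and Ptprn shares are not corrected for depth, and these classes had high medians, of 443 and 394 table UMIs. Within depth bins, the Ptprn level in marker barcodes was 0.473 times (0.278 to 0.774) that in the rest, while Alpi was 2.09-fold higher. In the 143 barcodes with the chemokine gene Ccl20 the ratios ran from 0.768 for Bard1 to 1.33 for Nabp1, and in the 61 with Alpi from 0.724 for Smarcal1 to 1.30 for Nabp1. The 7 classes overlap, and their order for any of the 4 genes is not set beyond counting error.

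**Figure D5:**
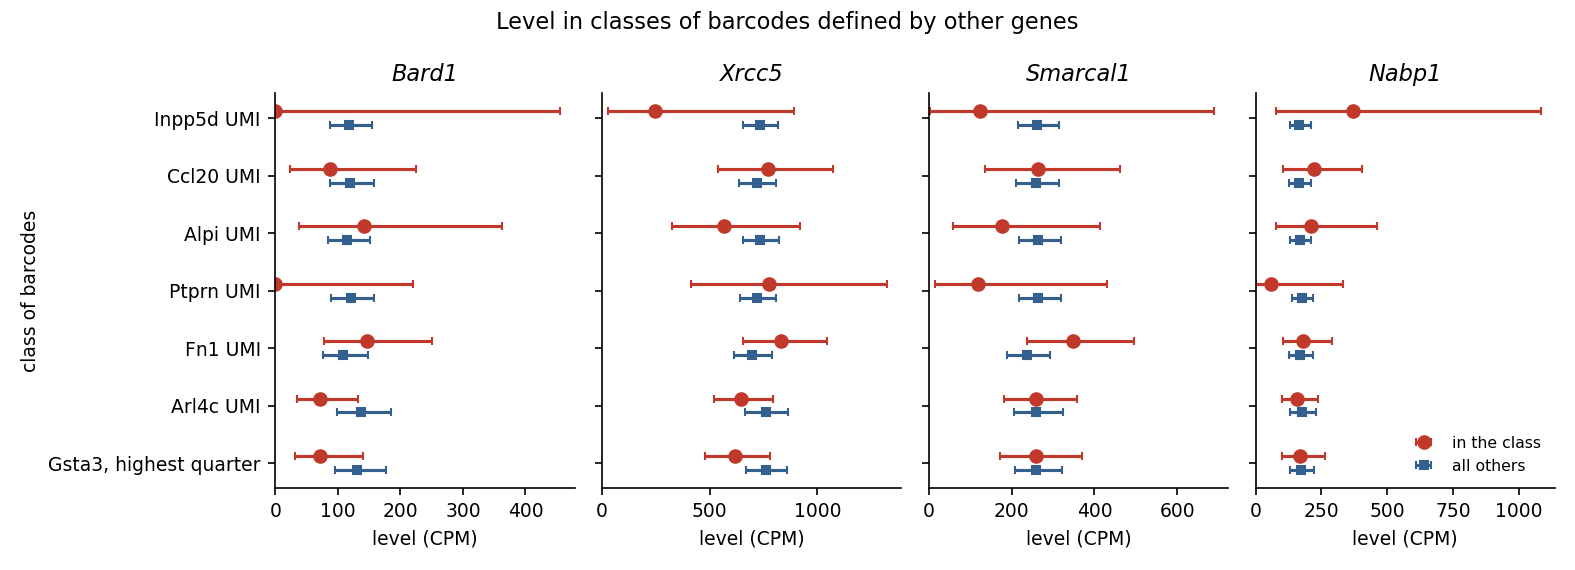
Level of each gene in CPM in 7 classes of barcodes (red) and in all other barcodes (blue), with exact Poisson 95% intervals; classes are barcodes with a UMI of the gene named, or the 346 with the highest Gsta3 share. The 2 Bard1 points at 0 are counts of 0 in the Inpp5d and Ptprn classes, and in every row the intervals of the 2 colours overlap.

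Levels of the 4 genes did not differ detectably with depth. From the bin under 200 UMIs to that of 400 or more, Bard1 stood at 77.4, 91.7 and 155 CPM, Xrcc5 at 813, 729 and 691, Smarcal1 at 252, 294 and 221, and Nabp1 at 174, 174 and 166. The interval of the deepest over the shallowest bin included 1 for each gene, with Bard1 highest at 2.00 (0.700 to 7.85).

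Over single barcodes, the 4 genes correlated weakly with any other gene. Over 1388 barcodes, which share 1 pool and differ in depth, the genes most like Bard1 in depth-corrected counts were Ptma (correlation 0.153), Mcm3 (0.141) and Prim2 (0.140), among 231 genes. For Xrcc5 they were Plekhb2 (0.105), Farsb (0.101) and Vil1 (0.0973). For Smarcal1 the highest was 2010300C02Rik (0.0947), followed by Tmem70 (0.0798) and Txndc9 (0.0707), and for Nabp1 Atp6v1h (0.0776), followed by Spats2l (0.0713) and Cnnm3 (0.0698). In counts this sparse such weak values are a description only.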

How the data were processed

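Single-cell RNA was counted in 8 labelled samples of 1 genotype. The authors deposited 1 table of raw counts, genes by cell barcodes, which was read as UMI counts. Per the submitters' processing notes, Cell Ranger, Seurat 2.3.0 and mm10 were used, with no role or order given. The strand setting, gene annotation and earlier filters were not stated. The number of per-sample value columns left unmapped was 0, since the 1460 barcodes (0 duplicated) name no sample. A last, incomplete row with 928 values, all 0, was left out.

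Barcodes with 100 or more UMIs and genes with 20 or more UMIs were kept. Levels carry exact Poisson, shares exact Clopper-Pearson and ratios exact conditional intervals, at 95%. Common ratios condition on the counts of each depth bin, and ratios of ratios on the 2 by 2 tables of UMIs. The limit for a count of 0 is 3 counts over the class. The scripts were tested on simulated data. No doublet caller was run. Leaving out the deepest 5% of barcodes by table UMIs was 1 alternative, but table UMIs are not library depth, so it cannot tell doublets from single cells. The part of doublets in the results was not tested. Likeness is the Pearson correlation of Pearson residuals (overdispersion 100, limited to 10) with genes in 50 or more barcodes. Python 3.11.15, numpy 2.4.6 and scipy 1.17.1 were used.

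Named genes are the 4 members, the 3 markers, all listed repair and replication genes with a row, and the 3 most like genes per member. Outside that rule, the text also names cell type markers with a row, the genes that define barcode classes, the 4 biosynthesis genes and the 4 genes left out of a denominator. Il1r2 was named after its value was seen. The members, lists and markers were chosen with earlier results of these data known, among them a high Bard1 level near Sgol2, so that value is no independent support. Alternatives covered depth bins, barcode filters, denominators, thinning and markers.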

Additional observations from a re-analysis of the deposited data

Results flagged for a closer look

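Xrcc5 was also found in the 72 barcodes left out for holding fewer than 100 UMIs, at 1190 CPM (437 to 2590) from 6 UMIs among 5043, above 595 CPM, the limit set by a count of 0 there. Its interval includes the 723 CPM of the kept barcodes. Smarcal1 had 3 UMIs in these barcodes, Nabp1 2 and Bard1 0.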

How the results depend on the processing

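The Bard1 ratio by replication marker stayed above 1 in all 16 alternatives, from 2.80 to 9.19, and its interval excluded 1 in 15 of them. The exception was thinning every barcode to 100 UMIs in a single random draw, with the markers read again in the thinned counts. This changed both the Bard1 counts and the set of marker barcodes. It left 2 Bard1 UMIs in marker barcodes and 9 in others (2.80, 0.295 to 13.5), and the spread between draws was not measured. In the thinned counts Xrcc5 had a ratio of 1.96, Smarcal1 0.647 and Nabp1 1.64, and Bard1 stood 1.43 times above Xrcc5 and 1.68 times above Nabp1; the Xrcc5 interval (1.08 to 3.33) then excluded 1. The Xrcc5 ratio moved to 0.891 with Sgol2 alone and to 0.877 with Hjurp as marker. The Smarcal1 interval excluded 1 in 1 of 16 alternatives and that of Nabp1 in 0. The Bard1 ratio exceeded that of Smarcal1 with an interval above 1 in 13 of 16. Of 128 values under alternatives, 121 lay inside the interval of the reported value. Some of these could not move and are no check, here or in the Bard1 counts above. A change of denominator leaves ratios between genes as they were. Without a minimum of UMIs the Bard1 values also stayed the same, since the left-out barcodes held 0 Bard1 UMIs. For the values outside the interval of the reported value, the cause was not tested. Using Hjurp as marker, splitting bins by biosynthesis share, leaving out the barcode with most UMIs of a gene, counting each barcode once and all alternatives for the biosynthesis comparison were chosen after seeing the data. No paired analysis was possible because the columns name no sample and there is 1 group, and for the same reason no sample could be left out. Depth limits Bard1, Nabp1 and Smarcal1 most, with 51, 75 and 114 UMIs.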
